A study of Mus musculus with 9 samples.

Results

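MHC class II was followed in the mouse cells of the tumor microenvironment (TME) through 7 genes chosen by symbol: H2-Aa, H2-Ab1, H2-Eb1, Cd74, H2-DMa, H2-DMb1 and Ciita, out of 33274 gene symbols that the 9 count tables hold together. In 7 tables all 7 symbols were listed. Ciita was missing from the tables of Nu-NB and P3, where it has no value rather than a value of 0. The data are Drop-seq profiles, which count unique molecular identifiers (UMIs) at the 3′ end of transcripts in single cells. They cover 1 tumor-free nude mouse brain (Nu-NB), 7 patient-derived orthotopic xenografts (PDOXs) of human glioblastoma grown in the brain of Nude mice without treatment (P3, P8, P13, T16, T101, T192 and T233), and the P3 PDOX after temozolomide (TMZ), an alkylating chemotherapy (P3TMZ). T192 and T233 derive from the same patient. The P3 control of the TMZ experiment received vehicle according to the study's methods. All hosts were nude mice, which lack a thymus and therefore mature T cells, while B and NK cells remain. Every condition other than the untreated PDOXs rests on 1 sample, so intervals given for a single sample cover counting error only. Cells of Nu-NB and P8 were enriched by FACS and those of the other samples by magnetic depletion, so that the sort and the tumor-free state cannot be told apart outside P8.

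MHC class II molecules present peptides from engulfed or internalized protein to CD4+ T cells. H2-Aa and H2-Ab1 encode the α and β chains of I-A, and H2-Eb1 encodes the β chain of I-E. Cd74 is the invariant chain, which fills the groove of the new dimer and guides it to endosomes, where H2-DMa and H2-DMb1 form the H2-DM dimer that exchanges the remaining invariant chain fragment for peptide. Ciita is the transactivator that switches these genes on together with the RFX and NF-Y factors bound at their promoters. In the brain, resting microglia (Mg) carry little class II, whereas activated Mg, macrophages of the borders, dendritic cells and B cells can carry much more.

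Of the 7 genes, 5 lie in the MHC on chromosome 17 of GRCm38 (GENCODE annotation). H2-Ab1 spans chr17:34257689-34269419 and H2-Eb1 chr17:34305867-34316674, both on the plus strand, and H2-Aa spans chr17:34282744-34287823 on the minus strand. H2-DMa (chr17:34119541-34139101) and H2-DMb1 (chr17:34153072-34160230) lie on the plus strand in the same region. Ciita spans chr16:10480059-10528418 and Cd74 lies outside the MHC on another chromosome. RefSeq promoter windows (GRCm38.p6) were at hand for 4 of the 7 genes. The 150 bases before the start of H2-Aa (chr17:34287824-34287973, minus strand) and of H2-Eb1 (chr17:34305717-34305866, plus strand) are shown because H2-Eb1 and H2-Aa stood in different proportion in different samples. Capitals mark the NF-Y box ATTGG on either strand and ACTGATG, the end of an X-box-like run, motifs that were chosen after the sequences had been seen.
H2-Aa: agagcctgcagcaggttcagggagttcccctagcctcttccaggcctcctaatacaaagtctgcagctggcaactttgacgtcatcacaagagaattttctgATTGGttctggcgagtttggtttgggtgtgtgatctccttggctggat
H2-Eb1: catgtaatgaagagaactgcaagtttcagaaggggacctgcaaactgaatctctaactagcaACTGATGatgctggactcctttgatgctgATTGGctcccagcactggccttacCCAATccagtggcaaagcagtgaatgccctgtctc
Counted from the start, ATTGG lay at -48 to -44 in H2-Aa. In H2-Eb1 it lay at -59 to -55 on the forward strand and at -35 to -31 on the reverse strand, and ACTGATG lay at -88 to -82. The H2-Aa window held no ACTGATG, but only this form was searched, so an X box of another form is not excluded there. H2-DMb1 held ACTGATG at -91 to -85 and ATTGG at -61 to -57, in a stretch that GENCODE counts as exon, and neither motif was found in the H2-DMa windows. Among 32851 windows of the same length over all genes, on both strands, 24.5% held ATTGG, 1.57% held ACTGATG and 0.362% held both. These are matches of letters, not bound sites.

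After filtering, between 722 cells (P3TMZ) and 2770 cells (P13) were kept per sample, with median depths of 513.5 to 1272.5 UMIs per cell and totals of 1294068 to 8410580 UMIs per table. The 36 pairs of tables shared 134 cell barcodes in all. Cells were clustered without class II genes and named from marker lists. The myeloid-like class held 3692 cells, between 141 (P3) and 922 (T192) per sample, of which 3454 were microglia-like. Microglia-like cells of the brain and of the PDOXs came mostly from different clusters. In Nu-NB 93.7% of myeloid-like cells were homeostatic microglia-like (led by P2ry12, Tmem119 and Gpr34), whereas in the PDOXs together 59.6% were activated microglia-like (led by Spp1, Cst7, Lpl and Itgax) and 19.3% homeostatic. T16 and P13 differed from the other PDOXs, with 63.7% and 52.6% of their myeloid-like cells in the homeostatic subset. Class II genes, although left out of the clustering, were also among the leading genes of the activated clusters. The median depth of myeloid-like cells was 490 UMIs in Nu-NB against 513 to 1118 over the PDOXs. T101 gave 159 myeloid-like cells and stood apart: 872 of its 1498 kept cells fell in clusters without a name. An interferon-led cluster (Iigp1, Isg15, Ifit2) with raised myeloid markers was kept out of the class. Its leading genes held Ccl5, a chemokine on the T or NK marker list, and the naming rule left it unnamed. Of its 201 cells, 105 came from T101, against 7 from Nu-NB. A second cluster with raised myeloid markers, led by astrocyte genes, was also kept out, and its 142 cells included 2 from Nu-NB and 0 (P3) to 39 (T192) from each PDOX.

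Myeloid-like cells held 6064 of the 9496 H2-Aa UMIs and 18969 of the 25585 Cd74 UMIs of all kept PDOX cells. Each cell was thinned to 500 UMIs to compare shares at equal depth, and a cell with a UMI of H2-Aa, H2-Ab1 or H2-Eb1 is called classical-positive here. In the 7 PDOXs together 33.9% of 1895 myeloid-like cells (31.7 to 36.1%, exact binomial 95% interval) were classical-positive, against 2.89% of 1420 endothelial-like cells (2.08 to 3.90%), which carry little class II at rest and served as the background of free RNA. The background was not equal between samples. Endothelial-like cells were positive in 0.917 to 7.14% of cells in 6 PDOXs but in 16.1% of 118 cells in T101 (9.98 to 24.0%). In Nu-NB 0 of 11 endothelial-like cells were positive, which allows a share of up to 27.3%, and astrocyte-like cells gave 0.395% of 506. Among B-like cells, 78.9% of 38 were positive over all samples.

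In the tumor-free brain class II was rare and held by few cells. At equal depth, 2.52% of 318 myeloid-like cells of Nu-NB were classical-positive (1.09 to 4.90%), and 2.41% of all 665 without thinning. These cells gave 46 UMIs of H2-Aa, 25 of them from a single cell. Cells named monocyte-derived-like made up 1.5% of the myeloid-like cells but held 60.7% of the classical UMIs (54 of 89). The homeostatic cells, 623 in number, gave 2 UMIs of H2-Aa and 44 of Cd74, which corresponded to 121 CPM of Cd74, the usual scale of a gene's UMIs relative to all UMIs of the summed cells. Homeostatic cells held 8 of the 89 classical UMIs.

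The mean level of each tested class II gene was higher in PDOX myeloid-like cells than in those of the brain, with a wide spread between PDOXs. For H2-Aa, the summed myeloid-like cells gave 116 CPM in Nu-NB (exact Poisson 95% interval 85.0 to 155), and 2098 in P8, 8012 in T101, 238 in T192, 1068 in T233, 352 in P3, 82.5 in T16 and 699 in P13. The brain was exceeded by 6 PDOXs, and T16 lay below it with an interval (45.1 to 138) that overlapped that of the brain. T101 exceeded T16 by 97.1-fold. H2-Ab1, its partner chain, gave 90.8 CPM in Nu-NB, and 1602 in P8, 10633 in T101, 288 in T192, 729 in T233, 452 in P3, 106 in T16 and 691 in P13. All 7 PDOXs were above the brain, T16 by the least and with an interval (62.9 to 168) that overlapped that of the brain (63.6 to 126). H2-Eb1 gave 17.7 CPM in Nu-NB, and 290 in P8, 157 in T101, 58.1 in T192, 193 in T233, 41.4 in P3 and 95.5 in P13, while no UMI was counted in T16, where 3 counts would be 17.7 CPM. P8, not T101, was highest for this gene.

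The invariant chain Cd74 ranked the samples much as H2-Aa did. It gave 394 CPM in Nu-NB, and 8206 in P8, 8216 in T101, 1096 in T192, 3061 in T233, 775 in P3, 306 in T16 and 1016 in P13. P8 and T101 were level and far above the others. T16 was again below the brain, with an interval (229 to 402) that overlapped that of the brain (334 to 460). In Nu-NB 1 cell held 54 of the 156 Cd74 UMIs. The PDOX mean was 3239 ± 3504 CPM (SD, n = 7).

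The H2-DM genes, which load the peptide, were near the limit of detection in the brain. H2-DMa gave a single UMI in Nu-NB (2.52 CPM), and 135 CPM in P8, 491 in T101, 100.2 in T192, 119 in T233, 116 in P3, 35.4 in T16 and 91.9 in P13. Every PDOX was above the brain, and apart from T101 and T16 they lay close together. H2-DMb1 gave 15.1 CPM in Nu-NB, and 150 in P8, 324 in T101, 102.9 in T192, 78.7 in T233, 91.1 in P3 and 54.2 in P13, with no UMI in T16. Ciita was close to the limit of detection: 10 UMIs in T101 corresponded to 92.6 CPM, and the other PDOXs that list it gave 1 to 11 UMIs, or 3.33 to 7.63 CPM. The Ciita level of the brain is not known, since the gene is not listed there.

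**Figure D1:**
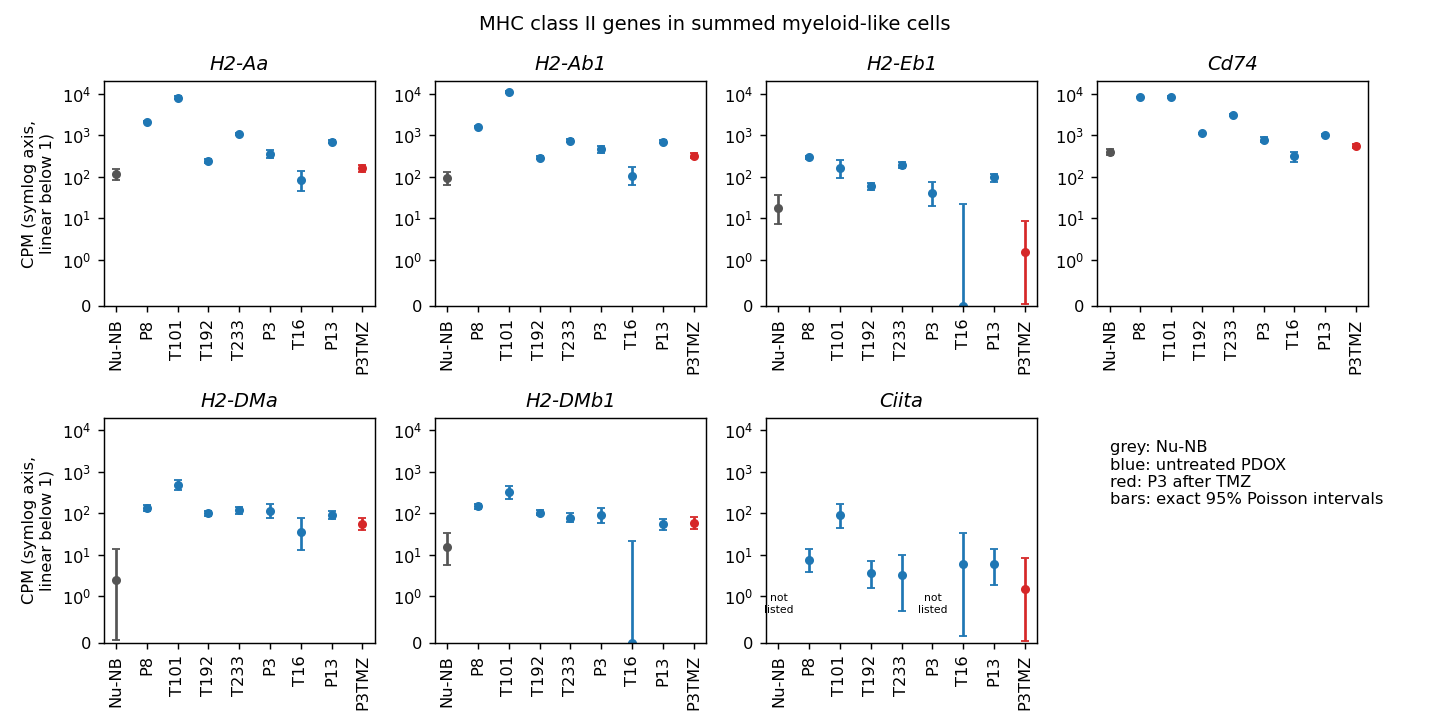
Level (CPM) of each class II gene in summed myeloid-like cells, per sample, on a symmetric log axis that is linear below 1; points are sums and bars exact 95% Poisson intervals of the counts. T101 and P8 stand at the top for most genes (H2-Aa 8012 and 2098 CPM). T16 sits under Nu-NB for H2-Aa (82.5 against 116 CPM) with overlapping intervals, and H2-DMa is above Nu-NB in all 7 PDOXs.

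As ratios of the PDOX mean to the brain, H2-Aa was 15.4-fold (11.6 to 21.1, counting error of Nu-NB alone), H2-Ab1 22.8-fold (16.5 to 32.6), H2-Eb1 6.76-fold (3.28 to 16.8), Cd74 8.23-fold (7.04 to 9.69) and H2-DMb1 7.56-fold (3.47 to 20.6). With 1 UMI in the brain the ratio for H2-DMa was 61.6, with an interval of 11.1 to 2433. All these intervals take UMIs as independent and leave out the spread between cells, so they are too narrow. The largest count in 1 Nu-NB cell was 25 of 46 UMIs for H2-Aa, 14 of 36 for H2-Ab1 and 54 of 156 for Cd74. T101 set much of these means: without it the ratio was 6.52-fold for H2-Aa, 7.10-fold for H2-Ab1 and 39.4-fold for H2-DMa, while without any other PDOX no ratio moved by more than 1.5 times. By edgeR's quasi-likelihood test on summed UMIs (7 PDOXs against 1 brain, Benjamini-Hochberg FDR of at most 0.01 and |log2FC| of at least 1), 0 of the 6 tested class II genes was called, where 1 of 9011 genes was called in all (0.0111%), and 3 of the 6 had an unadjusted p of at most 0.05, as had 19.4% of all genes (11.7% higher and 7.65% lower in PDOXs). The closest was H2-DMa, with a log2FC of 6.09 ± 1.55 (SE, edgeR FDR = 0.0849). H2-Ab1 had 4.79 ± 2.27 (edgeR FDR = 0.263), H2-Aa 4.24 ± 2.07 (edgeR FDR = 0.278) and Cd74 3.34 ± 1.59 (edgeR FDR = 0.266). Without T101 the log2FC was 2.998 for H2-Aa and 3.12 for H2-Ab1. The median log2FC over all genes was 0.0936. A second tool, DESeq2, called 2 of the 6, H2-DMa (log2FC 6.20 ± 1.69, DESeq2 FDR = 0.0043) and H2-Ab1 (3.09 ± 0.88, DESeq2 FDR = 0.00651), where it called 2.5% of all genes (2.13% higher and 0.366% lower). Its H2-Ab1 value was fitted with the count of T101 replaced as an outlier (67 in place of 1148 UMIs), and the call was lost without T192, T233, P3 or P13 (DESeq2 FDR = 0.0818 to 0.115), where the log2FC rose to between 4.95 and 5.003 with an SE of 2.10 to 2.21. No adjusted p was given without P8 or T16. In both tools the brain is 1 sample with no spread of its own, so that the spread behind each p comes from the PDOXs, and the H2-DMa call rests on 1 UMI in the brain. By separation alone, 2 of the 6 genes (H2-Ab1 and H2-DMa) had every PDOX above the brain, as had 13.2% of all genes tested, and none had every PDOX below it (32.2% of all genes).

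The same genes were then summed over microglia-like cells, so that the few monocyte-derived and border cells could not set the level. H2-Aa gave 35.3 CPM in Nu-NB, and 2090 in P8, 8534 in T101, 235 in T192, 1069 in T233, 219 in P3, 80.0 in T16 and 194 in P13. All 7 PDOXs were now above the brain, as they were for H2-Ab1, Cd74 and H2-DMa (4 of 6 genes, against 12.7% of all genes tested, while 33.1% had every PDOX below). For H2-Aa the interval of T16 (41.3 to 140) overlapped that of the brain (18.8 to 60.3). Against all myeloid-like cells, the H2-Aa level was lower chiefly in Nu-NB, P13 and P3. Ratios of the PDOX mean to the brain were 50.3-fold for H2-Aa (29.4 to 94.5), 55.6-fold for H2-Ab1 (32.5 to 104) and 18.2-fold for Cd74 (14.3 to 23.5). Without T101 these were 18.4-fold, 15.5-fold and 12.7-fold. No UMI of H2-DMa was counted in the brain's microglia-like cells, so the PDOX mean was at least 18.9-fold higher than the level of 3 counts, and at least 11.8-fold without T101. By edgeR 0 of 6 genes was called, where 0.0352% of 8528 genes were (0.0117% higher and 0.0235% lower), and 6 of 6 had an unadjusted p of at most 0.05, all higher in PDOXs, as had 11.5% of all genes in that direction. The edgeR FDR was 0.0494 for H2-DMa and 0.162 to 0.191 for the other genes. DESeq2 called 1 of 6, H2-DMa, against 2.93% of all genes (2.54% higher and 0.387% lower). With a count of 0 in a single brain and a filter that the gene passed through the PDOXs, this call shows no more than the bound above.

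At equal depth the share of myeloid-like cells with classical class II was highest in T101, P8 and T233, as the summed levels of H2-Aa were. It was 5% in T16 (6 of 120 cells), 15.2% in P13 (58 of 381), 15.2% in P3 (14 of 92), 18.1% in T192 (100 of 553), 50.4% in T233 (134 of 266), 63.6% in P8 (255 of 401) and 91.5% in T101 (75 of 82). All 7 shares were above the 2.52% of Nu-NB, but the interval of T16 (1.86 to 10.6%) overlapped that of the brain and that of its own endothelial-like cells (1.63%, 0.601 to 3.51%). Of the 8 pairs of neighbors in the order of the 9 samples, 5 had overlapping intervals. The intervals of T101, P8 and T233 were each apart from that of the next sample below. Without thinning the classical share ran from 8.46 to 91.2% over the PDOXs, with 2.41% in Nu-NB. For Cd74 the shares were 6.60% in Nu-NB, 8.33% in T16, 14.7% in P13, 22.8% in P3, 31.3% in T192, 60.9% in T233, 77.8% in P8 and 91.5% in T101. The PDOX mean exceeded the brain by 34.5 percentage points for the classical genes (37.0 ± 32.1%, SD, n = 7; exact permutation test, two-sided, p = 0.375) and by 37.3 points for Cd74 (43.9 ± 32.7%, SD, n = 7; exact permutation test, two-sided, p = 0.375). With 1 brain against 7 PDOXs the exact permutation test cannot go below p = 0.13.

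**Figure D2:**
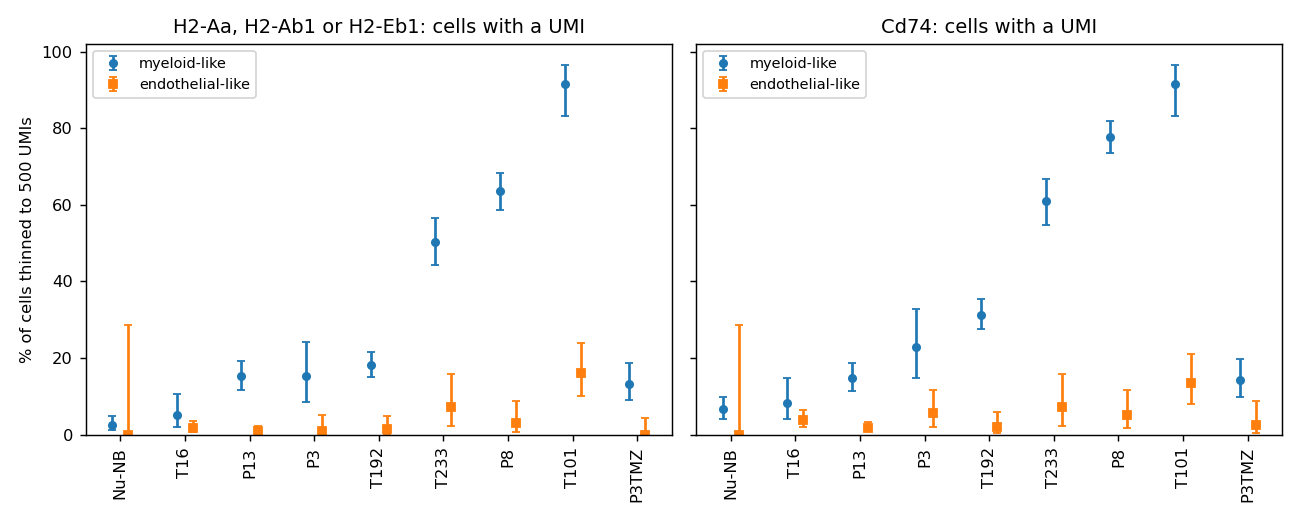
Percent of cells, thinned to 500 UMIs, with a UMI of H2-Aa, H2-Ab1 or H2-Eb1 (left) or of Cd74 (right) per sample, for myeloid-like (circles) and endothelial-like cells (squares, background); bars are exact 95% binomial intervals. Myeloid-like shares run from 2.52% in Nu-NB to 91.5% in T101 for the classical genes, and the endothelial-like background is highest in T101 (16.1%).

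Within a subset the differences between samples remained. Among activated microglia-like cells the classical share was 10% in T16, 14.3% in P3, 16.1% in P13, 19.5% in T192, 54.4% in T233, 70.9% in P8 and 100% in T101 (31 of 31 cells, 88.8 to 100%). The PDOXs stood in the same order as in all myeloid-like cells. Among homeostatic microglia-like cells the share was 0.685% in Nu-NB (2 of 292), 2.54% in P13, 2.86% in T16, 5.26% in T192, 9.09% in P3, 10.5% in T233, 22.2% in P8 and 54.5% in T101 (6 of 11). T101 and P8 were highest in both Mg states. Since subsets were cut from the same cells, these values are a description and were not tested.

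Cells named monocyte-derived-like (Ccr2, Ly6c2, Tgfbi) were positive at a high share in the 4 samples with at least 6 cells, at 50% of 6 in Nu-NB, 58.3% of 12 in P8, 68.9% of 45 in P13 and 87.5% of 8 in T101. Their H2-Aa level was 3304 CPM in Nu-NB (31 UMIs from 10 cells, 25 of them from a single cell), 2666 CPM in P8, 4788 CPM in P13 and 7105 CPM in T101. The homeostatic cells gave 5.52 CPM in Nu-NB, 9.97 in P13 and 2886 in T101, below the monocyte-derived-like cells of the same sample. Border-associated macrophage-like cells (Mrc1, F13a1, Lyve1) were positive at 9.52% of 42 cells in the PDOXs and 7.14% of 14 in Nu-NB.

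**Figure D3:**
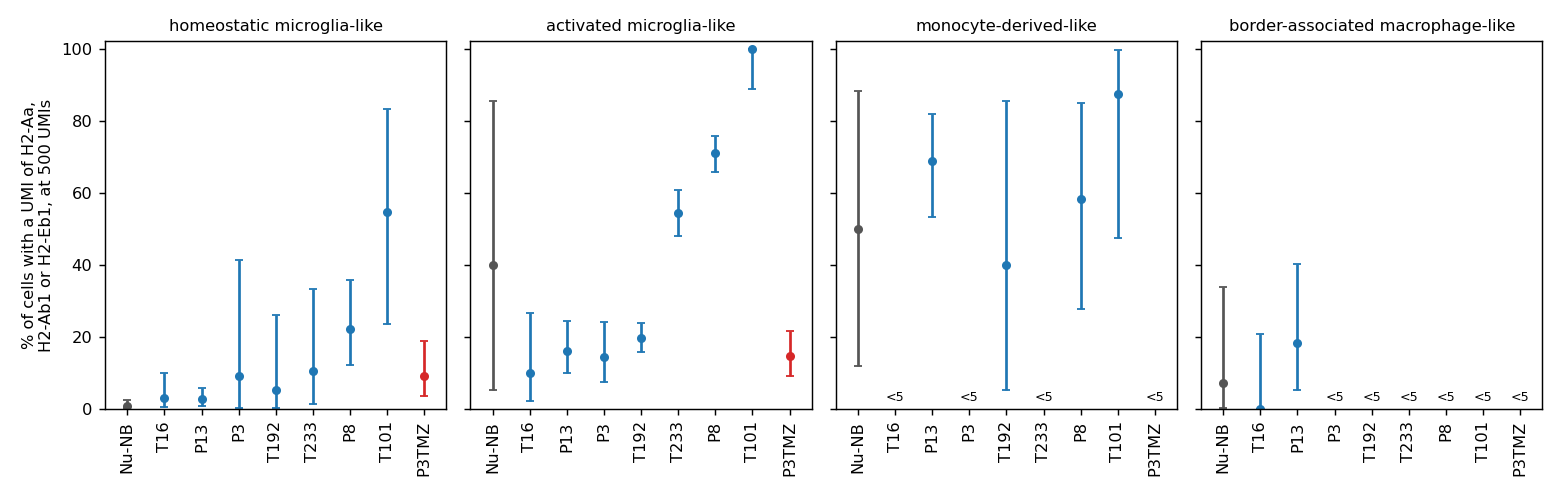
Percent of cells with a UMI of H2-Aa, H2-Ab1 or H2-Eb1 at 500 UMIs per cell, by myeloid subset (panels) and sample; bars are exact 95% binomial intervals, and "<5" marks samples with fewer than 5 cells. Activated microglia-like cells span 10% (T16) to 100% (T101), and monocyte-derived-like cells of P13 stand at 68.9% beside 2.54% of its homeostatic cells.

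The subsets that held the classical UMIs differed between samples. Activated microglia-like cells held 96.9% of the classical UMIs in P8, 95% in T192 and 99.0% in T233. In P13 they held 25.9%, and monocyte-derived-like cells, 11.6% of its myeloid-like cells, held 66.5%. In P3, 3 monocyte-derived-like cells held 30.4%. Homeostatic cells were 63.7% of the T16 cells and 52.6% of the P13 cells, but held 28.1% and 0.476% of their classical UMIs. In T101 activated cells held 51.5% and a macrophage cluster without a subset name 28.9% (586 of 2030 UMIs). That cluster was led by H2-Ab1, Ly6c2 and Ccl5, and 55 of its 57 cells came from T101.

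**Figure D4:**
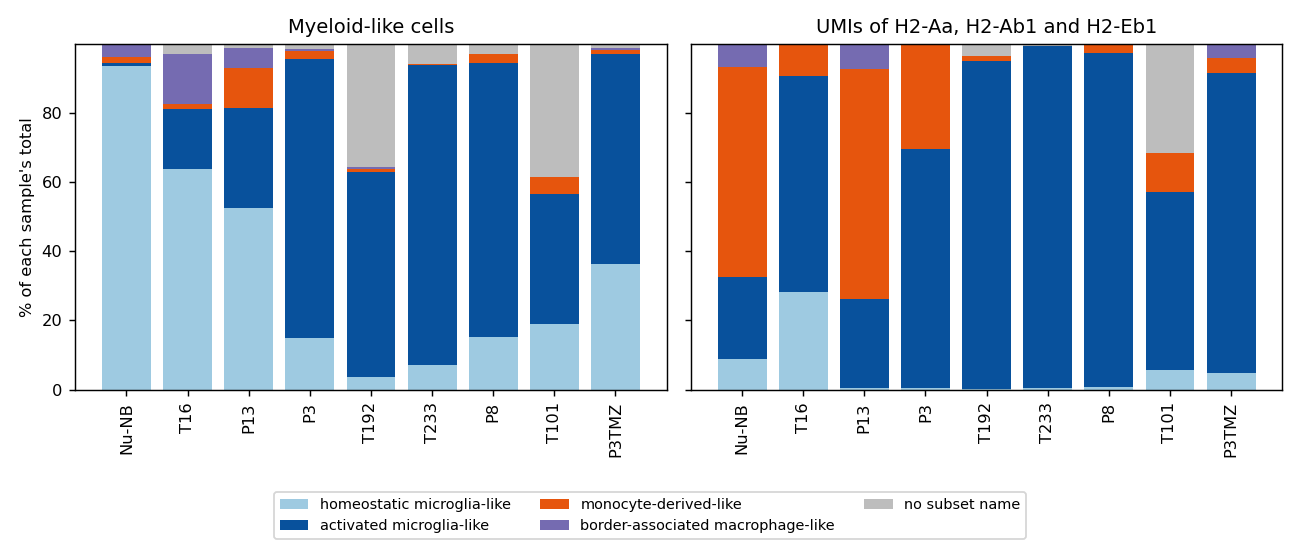
Make-up of each sample by myeloid subset, as percent of its myeloid-like cells (left) and of the UMIs of H2-Aa, H2-Ab1 and H2-Eb1 that these cells hold (right). Activated microglia-like cells hold 96.9% of the UMIs in P8, and monocyte-derived-like cells hold 60.7% in Nu-NB and 66.5% in P13.

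P8 and Nu-NB, which went through the same sort, allow the only comparison with the brain within a sort. P8 exceeded Nu-NB in myeloid-like cells by 18.1-fold for H2-Aa (13.5 to 24.7, conditional binomial interval, counting error only), 17.6-fold for H2-Ab1 (12.7 to 25.3), 16.4-fold for H2-Eb1 (7.90 to 41.1), 20.9-fold for Cd74 (17.8 to 24.6) and 9.90-fold for H2-DMb1 (4.48 to 27.3). For H2-DMa, with 1 UMI in Nu-NB, it was 53.4-fold (9.47 to 2119). In microglia-like cells alone the ratio was 59.3-fold for H2-Aa (34.6 to 111), 45.0-fold for H2-Ab1 (26.3 to 84.7) and 45.7-fold for Cd74 (35.9 to 59.1), against 10.9-fold for H2-DMb1 (4.61 to 34.0). The intervals of all 6 ratios overlapped in myeloid-like cells, whereas in microglia-like cells those of H2-Aa and Cd74 lay above that of H2-DMb1. These intervals, too, take UMIs as independent, although 1 myeloid-like cell of Nu-NB held 25 of 46 H2-Aa UMIs. T192 and T233, grown from separate tumor samples of the same patient, did not share a level. T233 was above T192 by 4.48-fold for H2-Aa (4.02 to 5.0), 2.53-fold for H2-Ab1 (2.26 to 2.83), 3.32-fold for H2-Eb1 (2.63 to 4.21) and 2.79-fold for Cd74 (2.64 to 2.95). The H2-DM genes of the same cells were near parity, at 1.18-fold for H2-DMa (0.931 to 1.5) and 0.765-fold for H2-DMb1 (0.577 to 1.0). The chains and the invariant chain thus differed beyond counting error, and the H2-DM genes did not. The make-up of their cells differed: a microglia-like cluster without a subset name held 326 of the 922 myeloid-like cells of T192 with 3.36% of its classical UMIs, and 22 of 373 cells in T233. In activated microglia-like cells alone H2-Aa stood at 252 CPM in T192 and 1096 in T233. Each is 1 library, so these intervals hold for the libraries only.

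The genes were not held in fixed proportion. Ratios were formed within a sample, where gene length and depth cancel between samples. H2-Eb1 UMIs per H2-Aa UMI were 0.152 in Nu-NB (7 to 46), 0.138 in P8 (418 to 3023), 0.137 in P13, 0.118 in P3, 0.181 in T233 and 0.244 in T192. T101 stood at 0.0197 (17 to 865; 0.0114 to 0.0317) and P3TMZ at 0.00935 (1 to 107; 0.000234 to 0.0532), and both upper bounds lay under the lower bounds of all other samples with a ratio. The low ratio of T101 was also found in its microglia-like cells, at 0.0129 (7 to 544; 0.00515 to 0.0267). In its 8 monocyte-derived-like cells the ratio was 0.0430 (4 to 93; 0.0115 to 0.114), with an interval that overlapped that of the same cells in P13 (0.0938 to 0.172). Cd74 UMIs per H2-Aa UMI were 3.39 in Nu-NB, 3.91 in P8, 4.60 in T192, 2.87 in T233, 2.2 in P3 and 3.71 in T16, but 1.03 in T101 and 1.45 in P13. T101 was low in both ratios and P13 in that of Cd74 alone. In P13 the Cd74 ratio was 1.28 in monocyte-derived-like cells (1.12 to 1.46) and 2.07 in microglia-like cells (1.69 to 2.54), where its interval overlapped that of P3 (2.02 to 3.91).

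**Figure D5:**
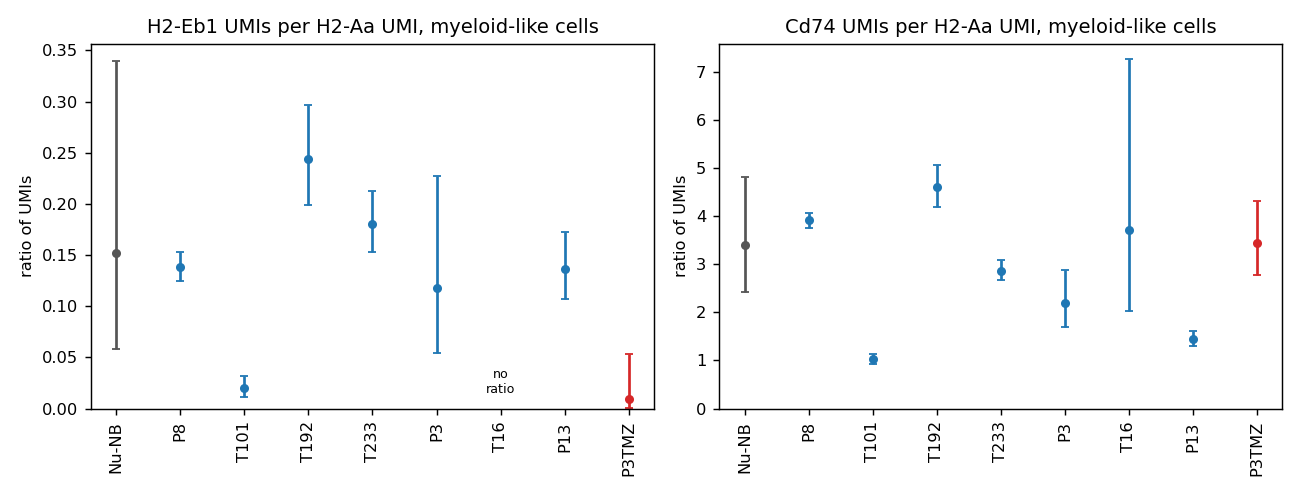
UMIs of H2-Eb1 (left) and Cd74 (right) per UMI of H2-Aa in summed myeloid-like cells of each sample; bars are exact 95% intervals from counting error, and T16 has no H2-Eb1 UMI. T101 lies at 0.0197 H2-Eb1 and 1.03 Cd74 UMIs per H2-Aa UMI, against 0.138 and 3.91 in P8.

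Cell by cell, Cd74 and the classical genes were found together. At 500 UMIs, 78.8% of the classical-positive myeloid-like cells of the PDOXs held Cd74, against 24.2% of the negative cells. In P8 the values were 89.8% and 56.8%, in T192 54% and 26.3%, in P13 65.5% and 5.57%, and in Nu-NB 75% (6 of 8 cells) and 4.84%. T16 had Cd74 in 0 of only 6 classical-positive cells at this depth, and in 41.2% of 17 without thinning, against 9.24% of its negative cells. The top 10% of myeloid-like cells held 38.4% of the H2-Aa UMIs in T101, 65.2% in P8 and 65.3% in T233, where 82.4%, 62.8% and 44.8% of cells held one. In the other samples at most 16.2% of cells held an H2-Aa UMI, so that the same measure would largely restate that share. The largest count of Cd74 in a single cell was 679 UMIs, in P8. These values were not thinned and also follow depth per cell.

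After TMZ the summed myeloid-like levels of 5 of 6 class II genes of P3 were lower beyond counting error, with UMIs taken as independent. The share of classical-positive cells was not distinguishable. In myeloid-like cells H2-Aa stood at 352 CPM in P3 and 162 in P3TMZ, a ratio of 0.459 (0.342 to 0.618). The ratio was 0.706 for H2-Ab1 (0.557 to 0.898), 0.717 for Cd74 (0.60 to 0.860), 0.482 for H2-DMa (0.287 to 0.817) and 0.646 for H2-DMb1 (0.374 to 1.14). H2-Eb1 had 10 UMIs in P3 and 1 in P3TMZ, a ratio of 0.0365 (0.00084 to 0.256). The classical share at equal depth was 15.2% (8.58 to 24.2%) in P3 and 13.3% (9.05 to 18.7%) in P3TMZ, and without thinning 24.1% and 27.9%. The make-up of the cells differed too: homeostatic microglia-like cells were 14.9% of the myeloid-like cells in P3 and 36.2% in P3TMZ, and activated cells 80.9% and 60.9%. Part of the summed signal lay in 3 monocyte-derived-like cells in each sample, which held 62 classical UMIs in P3 and 14 in P3TMZ. The largest count in 1 cell of P3 was 23 of 85 UMIs for H2-Aa, 37 of 109 for H2-Ab1 and 50 of 187 for Cd74. In P3TMZ it was 31 of 107, 39 of 211 and 65 of 368. In microglia-like cells the intervals of H2-Ab1 (0.661 to 1.13), Cd74 (0.692 to 1.03) and H2-DMb1 (0.360 to 1.11) reached above 1. Those of H2-Aa (0.477 to 0.964), H2-DMa and H2-Eb1 did not. In activated microglia-like cells alone the ratio was 0.709 for H2-Aa (0.500 to 1.01), 0.867 for H2-Ab1 (0.664 to 1.14), 0.844 for Cd74 (0.690 to 1.03) and 0.457 for H2-DMa (0.268 to 0.786), with classical shares of 14.3% and 14.5%. Only H2-DMa and H2-Eb1 (8 and 1 UMIs) kept intervals below 1 there. With 1 mouse in each condition this compares 2 libraries and no test was possible.

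The wider pathway was read from 6 fixed lists of 31 genes, 28 of them tested in myeloid-like cells. By edgeR 0 of 28 passed in either direction, 8 had an unadjusted p of at most 0.05 with higher and 2 with lower levels in PDOXs (11.7% and 7.65% of all genes), and DESeq2 called 5 (Ctsl, Ifi30, B2m, H2-K1 and H2-D1), all higher, where it called 2.13% of all genes as higher. Among the lysosomal enzymes that prepare peptides and trim the invariant chain, 2 of 4 were above the brain in all 7 PDOXs, as were 13.2% of all genes: Ctsl (cathepsin L), at 459 CPM in Nu-NB against 1049 to 2918 over the PDOXs, and Ifi30 (a thiol reductase), at 37.8 against 94.3 to 333. Ctss, the main cathepsin of Mg for this step, showed no such separation (11726 CPM in Nu-NB, PDOXs 7638 to 14035). H2-DMb2, the second H2-DM β chain gene, stood at 5.05 CPM in Nu-NB against 5.89 to 139 over the PDOXs, and it may share reads with H2-DMb1.

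Of the 7 factors that bind class II promoters, 0 was higher in every PDOX and 5 lay below the brain in all 7 (Rfx5, Nfya, Nfyb, Nfyc and Creb1), where 32.2% of all genes did. Creb1 stood at 131 CPM in Nu-NB against 43.2 to 77 over the PDOXs. In the interferon gamma list 1 of 6 genes, the receptor chain Ifngr1, lay below the brain in all 7 (658 CPM in Nu-NB against 120 to 350; log2FC -1.31 ± 0.45, edgeR FDR = 0.145). Of 5 class I genes, which nearly all nucleated cells use for presentation, 3 were above the brain in all 7 PDOXs (13.2% of all genes were), with B2m at 2023 CPM in Nu-NB against 4916 to 12541, H2-K1 at 245 against 737 to 4326, and H2-D1 at 542 against 1969 to 5446 (log2FC 2.85 ± 0.68, edgeR FDR = 0.0808). T16, under the brain for H2-Aa and Cd74 with overlapping intervals, was above it for all 3. Of the co-stimulation genes, Itgax (CD11c, an integrin chain) stood at 27.8 CPM in Nu-NB against 40.1 to 590 over the PDOXs, the adhesion molecule Icam1 at 45.4 against 86.0 to 363, and Cd86 at 126 against 106 to 171.

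Over the 8 samples without TMZ, the 5 genes outside the group whose myeloid-like level was most like the summed classical level, by Pearson correlation of log2(CPM + 1) among 3106 genes, were Fxyd5 (r = 0.909), Prdx5 (r = 0.902), Acsl5 (r = 0.891), Crip1 (r = 0.888) and Clptm1l (r = 0.879). Among class II genes that do not enter the sum, Cd74 reached r = 0.935, H2-DMa 0.805 and H2-DMb1 0.794. The points are 8 libraries of unequal depth, and T101 is the highest point for all 5 genes. The values are a description.

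Markers of other immune cells moved with some of these results. The tables list different markers, so list sums over myeloid-like cells were compared on the markers that all 9 tables hold, a choice made after seeing the data. For the monocyte-derived list (5 of 8 markers) the sum was 106 CPM in Nu-NB and ran from 29.9 (T233) to 834 CPM (T101), with 702 in P13 and 108 in P8. T101 and P13 stood above the other samples, and P8 was level with the brain. For the B list (3 of 7 markers, Cd79b, Ighm and Igkc) it was 141 CPM in Nu-NB and 90.9 (T233) to 417 CPM (T101) in the PDOXs. For the dendritic list only Zbtb46 and Batf3 are shared, at 47.9 CPM in Nu-NB and 11.8 (T16) to 64.8 CPM (T101). Of the defining markers, Flt3, Xcr1 and Clec9a were at 0 in Nu-NB, Flt3 and Xcr1 in P8, Flt3 and Clec9a in P13, Flt3 in T16 and P3TMZ, and Xcr1 in T233, while none of the 3 was at 0 in T101 and T192. For T or NK cells only Trac and Ccl5 are shared, at 0 in Nu-NB and 2.22 (T233) to 861 CPM (T101). Of the 109 UMIs of the whole T or NK list in T101, 91 were of Ccl5, a chemokine, and the other 18 corresponded to 167 CPM. That was the highest of all samples (next P8 at 49.3, with 0 in Nu-NB), but over unlike sets of markers. With Ccl5 counted, T101 and P8 list 9 markers, Nu-NB 7 and P3 only 2. The border-associated list (5 of 8 markers) stood at 873 CPM in Nu-NB, 1191 in T16 and 898 in P13, at 315 in T101, and at 59.0 (P8) to 128 CPM (P3) in the other PDOXs.

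Per cell, classical-positive myeloid-like PDOX cells were deeper than negative cells, at medians of 1187 and 651 UMIs, so their markers were compared at 500 UMIs, a step added after seeing the data. At this depth 5.45% of positive and 1.28% of negative cells held at least 2 monocyte-derived markers, with 27.6% and 3.10% in P13. Without thinning the values were 9.79% and 1.43%. For B markers the thinned shares were 1.25% of 642 positive and 0.319% of 1253 negative cells, for T or NK markers 0.623% and 0%, and for dendritic markers 0.467% and 0%. T101 gave all 4 positive cells with T or NK markers (4 of its 75), 2 of the 3 with dendritic and 3 of the 8 with B markers. Monocyte-derived markers were found in 17.3% of its 75 positive and 14.3% of its 7 negative cells. Border-associated markers were found in 0.935% and 3.19%, where 16 of the 40 negative cells came from T16 and 20 from P13. At least 2 myeloid markers were found in 99.4% of positive and 99.4% of negative cells. The part of such cells in the levels of T101 was not tested.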

How the data were processed

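Mouse cells of 9 samples (1 Nu-NB, 7 untreated PDOXs, 1 P3 PDOX after TMZ) were analysed. Tissue was dissociated to single cells, and per the labels and the study's methods Drop-seq reads were mapped to human and mouse references (submitters' processing notes: STAR, GRCm38, mm10, bcl2fastq 2.0; no version given for STAR). The authors deposited raw UMI counts per gene and cell barcode, without normalization. Tables list different genes (12580 shared of 33274), and a gene not listed was treated as missing.

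A cell was kept if it had 200 or more detected genes and no more than 30% of UMIs from mitochondrial genes, without the 5% of highest scrublet score per sample. They were clustered in scanpy 1.11.5 with leidenalg 0.10.2 (Python 3.11.15; 2000 variable genes, 30 components, 20 neighbors, resolution 1, seed 1) with class II genes left out. A cluster took a name when at least 3 and at least 50% of a list's markers were raised 4-fold. This naming rule was revised over 6 forms with clusters and sample make-up in view, before any gene test. The members and all lists were chosen with earlier results of these data known. Because samples of 1 group are separate PDOXs or mice, p-values measure the spread between them. T192 and T233, from the same patient, were counted as 2 samples. With both summed to 1 sample, the log2FC in myeloid-like cells was 4.29 for H2-Aa and 3.30 for Cd74.

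UMIs were summed per sample and tested with edgeR 4.0.16 (quasi-likelihood, TMM, filterByExpr) and DESeq2 1.42.0 on R 4.3.3, called at FDR of at most 0.01 and |log2FC| of at least 1, and both were tested on simulated data. CPM used all UMIs of the summed cells. Shares were taken after thinning to 500 UMIs, leaving out shallower cells (1269 of 3692 myeloid-like cells), with exact binomial intervals (95%), and a count of 0 was read against 3 counts. Named genes were the members, the fixed pathway lists (those that passed or whose 7 PDOXs lay on 1 side of Nu-NB, with Ctss and Cd86 added after their values were seen) and the 5 most correlated genes. Alternatives covered scaling, filter, tool, thinning depth, doublets, cell filter, gating, leaving out each PDOX and taking T192 and T233 as 1 sample.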

Additional observations from a re-analysis of the deposited data

Results flagged for a closer look

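T101 stood far from the other PDOXs (Dixon's 95% limit, on untransformed values) in 10 of 24 groups of values examined. The limit assumes normal values, whereas H2-Aa ran from 82.5 to 8012 CPM over the PDOXs, so no rate by chance can be given. A log scale was not examined. In myeloid-like cells these were H2-Aa (8012 CPM, next 2098), H2-Ab1 (10633 CPM, next 1602), H2-DMa (491 CPM, next 135), Ciita (92.6 CPM, next 7.63, from 10 UMIs) and the share of cells with an H2-DMa UMI at 500 UMIs (17.1%, next 7.14%). In microglia-like cells they were H2-Aa (8534 CPM, next 2090), H2-Ab1 (10448 CPM, next 1588), H2-DMa (502 CPM, next 134), Ciita (78.4 CPM, next 7.74) and the share with H2-DMa (18.2%, next 7.17%). The groups share genes and cells, so the 10 are not independent.

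Class II was also high in clusters outside the comparisons. The interferon-led cluster kept out of the myeloid-like class was classical-positive in 96.6% of 87 T101 cells, with 12196 CPM of Cd74, but in 0 of 30 cells in P13, 0 of 17 in T192 and 0 of 13 in P3TMZ. The 0 of 30 in P13 allows a share of up to 10%. With this cluster, T101 stood at 94.1% of 169 cells in place of 91.5% of 82. B-like cells were positive in 78.9% of 38 cells over all samples. An unnamed cluster led by H2-Aa and Ccl5 was positive in 77.3% of 22 cells, and 14 of its 23 cells came from T101.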

How the results depend on the processing

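Directions held under all alternatives run for the share differences and the 6 genes fitted. The counts of genes called have no direction and moved with the choice of tool. The classical share difference was 25.4 to 39.8 points with each PDOX left out in turn (25.4 without T101), and 25.4 to 43.3 over all 17 alternatives (exact permutation p = 0.25 to 0.429). The Cd74 difference was 29.4 to 43.2 points with each PDOX left out and over all alternatives (exact permutation p = 0.286 to 0.5). No class II gene was called by edgeR under any alternative, including each left-out PDOX (0 to 0), while DESeq2 called 2 in myeloid-like and 1 in microglia-like cells. By DESeq2 without T16, 3 were called in each, H2-DMa with H2-Eb1 and H2-DMb1, which have 0 UMIs in the myeloid-like cells of T16. DESeq2 and the ratios of means without each PDOX, and the additions of unnamed clusters to the class, were chosen after seeing the data. The edgeR count over all genes was 55 of 7431 in myeloid-like and 124 of 7506 in microglia-like cells without P8, and 0 in both without T233. Over 16 alternatives, in which DESeq2 was run on all samples only, the log2FC ranged from 2.99 to 4.46 for H2-Aa (edgeR and DESeq2 FDR 0.12 to 0.43), 3.09 to 5.01 for H2-Ab1 (FDR 0.00651 to 0.407), 2.73 to 3.32 for H2-Eb1 (FDR 0.116 to 0.479), 2.53 to 3.55 for Cd74 (FDR 0.138 to 0.44), 4.60 to 6.29 for H2-DMa (FDR 0.0043 to 0.245) and 2.77 to 4.33 for H2-DMb1 (FDR 0.0972 to 0.333). No paired analysis was possible because Nu-NB has 1 sample and replicate numbers were given in accession order. For depth, 3 counts correspond to 27.8 CPM in the myeloid-like cells of T101, 17.7 CPM in those of T16 and 7.57 CPM in those of Nu-NB.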
